A study of Mus musculus with 6 samples.

Results

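Caveolae are small flask-shaped pits of the plasma membrane, and the 6 genes of their coat were followed here in brown fat of mice held in the cold and of control mice. The genes were taken by name: Cav1 and Cav2 (caveolins), Cavin1, Cavin2 and Cavin3 (cavins), and Ehd2. They are 6 of 8129 genes with a read and of 2093 genes with enough reads to be tested, and all 6 passed that filter. RNA came from interscapular brown adipose tissue, which burns lipid to make heat, of wild-type male C57BL/6N mice aged 20 weeks. The cold group held 3 mice, numbers 4, 11 and 15, kept singly at 4 °C for 24 h. The control group held 3 mice, numbers 2, 9 and 14. For these the labels give only general husbandry at 22 to 24 °C, and whether they were also kept singly is not known, so single housing and cold cannot be told apart. Each library was full-length cDNA made from capped, polyadenylated RNA, amplified by PCR and read on nanopore flow cells. A read stands for 1 amplified cDNA molecule, and more than 1 read can come from the same RNA molecule. Each mouse gave 1 library.

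Caveolin 1 inserts into the inner leaflet of the membrane as a hairpin and assembles into oligomers that bind cholesterol, and caveolin 2 needs it to leave the Golgi. The cavins are cytosolic proteins that join these oligomers at the membrane. Cavin 1 is required for the pits to form, and Ehd2, an ATPase, sits as a ring at their neck and holds them at the surface. Adipocytes and endothelial cells carry caveolae in great number, and loss of caveolin 1 or cavin 1 in mice and humans leads to loss of fat tissue. Whole tissue was sequenced, so fewer cells of a type and less RNA per cell cannot be told apart.

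The cold libraries held 2923005 to 2982713 reads and the control libraries 1014847 to 1849431, so every cold library was deeper. Levels are given in CPM, counts scaled to a common library size with edgeR's TMM method, and changes as log2 cold minus control. A floor of 3 reads stood at 1.01 to 1.03 CPM in cold and at 1.62 to 2.96 CPM in control libraries, for counting error only. The 6 genes together had 3252 reads. All 9 brown adipocyte markers examined were tested, with Ucp1, the uncoupling protein of heat production, at 4129 ± 45.0 CPM in cold and 4520 ± 335 CPM in control libraries (SD, n = 3 each). Skeletal muscle markers summed to 13144 CPM in cold replicate 15 and 2854 CPM in cold replicate 11, against 186 CPM in cold replicate 4 and 123 to 961 CPM in the control libraries.

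In the cold, Ehd2 fell to 49.2 ± 12.2 CPM, against 133 ± 43.5 CPM in control libraries (SD, n = 3 each), and no other member passed the test. Cavin1 stood at 40.2 ± 4.22 CPM in cold and 75.5 ± 32.4 CPM in control libraries, at the edge of the threshold (adjusted p = 0.0511). Cav1, Cav2, Cavin2 and Cavin3 differed between the groups by at most 0.47 on the log2 scale. Thus 1 of 6 members was called lower at an adjusted p under 0.05 by edgeR's quasi-likelihood test with Benjamini-Hochberg adjustment over all genes, and 0 were called higher. Unadjusted p was under 0.05 for 2 members and for 44% of all tested genes. Over all 2093 tested genes 33.2% were called, 15.1% lower and 18.1% higher, so 1 of 6 members called lower is near the background. The median log2 change of the 6 was -0.36, against 0.04 over all tested genes. Log2 changes were below 0 for 5 of the 6 members and for 47.5% of all tested genes.

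**Figure D1:**
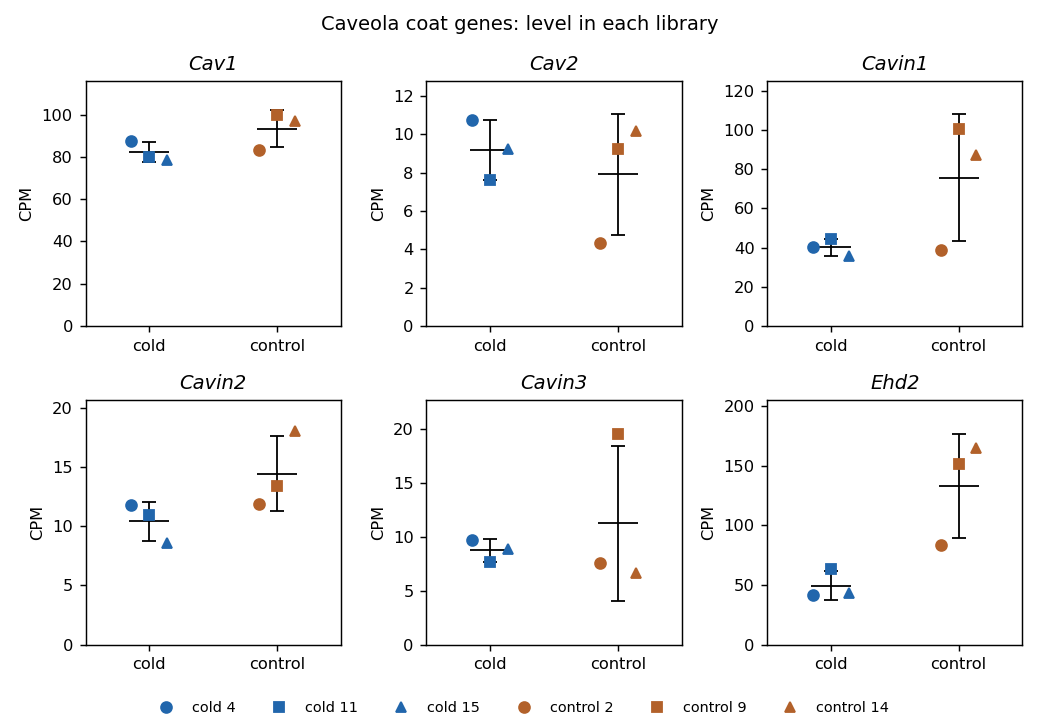
Level of each caveola coat gene in CPM (y axis, linear from 0) in the 3 cold (blue) and 3 control (brown) libraries, with group mean and SD as bars. Ehd2 lies lower in every cold library, at 41.3 to 63.2 CPM, than in any control library, and for Cavin1 control replicate 2 lies among the cold libraries.

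**Figure D2:**
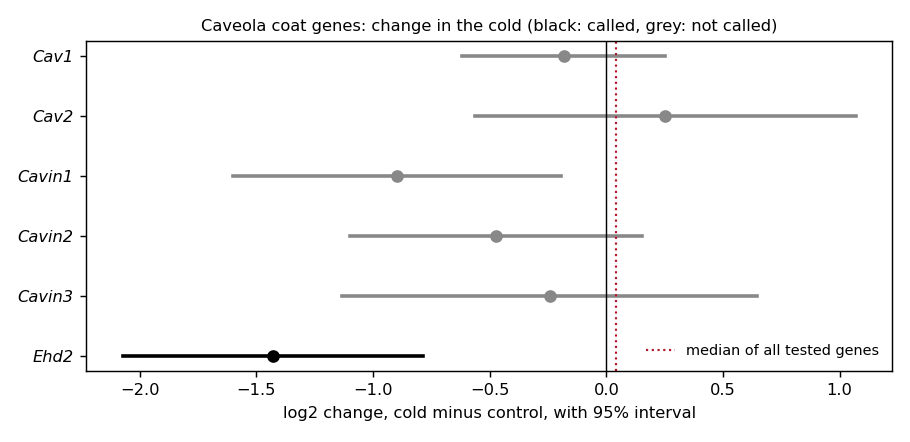
Log2 change of each member, cold minus control (x axis), with its 95% interval as a line; the red dotted line is the median of all tested genes, 0.04. The interval of Ehd2 ends at -0.79, that of Cavin1 at -0.19, and those of the other 4 members include 0.

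Cav1 encodes the caveolin without which no caveolae form outside muscle. Its level was 87.6, 80.1 and 78.7 CPM in cold replicates 4, 11 and 15, and 83.3, 99.7 and 97.2 CPM in control replicates 2, 9 and 14. Control replicate 2 lay within the cold range, so the groups overlapped. The change was -0.18 ± 0.20 (SE, adjusted p = 0.508), with a 95% interval from 0.652 to 1.19 times the control level. Cav1 (ENSMUSG00000007655) lies on chromosome 6 of GRCm38 from 17306335 to 17341452, on the plus strand, 17219 bases downstream of the end of Cav2.

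Cav1 was the only member with more than 1 transcript in the test. Of its 10 annotated transcripts 5 had a read, and Cav1-201 and Cav1-202 held 99.0% of its reads. Cav1-201 begins at base 17306335 in the first exon and encodes 178 residues, the α form of the protein. Cav1-202 begins 1305 bases further downstream, inside the first intron of Cav1-201, and encodes 147 residues, the β form that lacks the first 31. The longer Cav1-201 is also known to give β protein, by translation from its inner start codon. The start of the Cav1-201 coding sequence is shown because the forms differ there. Capitals mark the first ATG and the ATG of codon 32, at which the coding sequence of Cav1-202 begins; no other ATG lies in frame between them.

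Cav1-201 coding start (GENCODE M21, GRCm38, plus strand): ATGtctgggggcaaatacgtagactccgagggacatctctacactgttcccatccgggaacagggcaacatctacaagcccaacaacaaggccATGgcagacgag

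The windows around both start sites are shown because the transcripts arise there, each from 250 bases before to 50 bases after a RefSeq start site that is also the GENCODE start of the transcript. Capitals mark letters of any of 8 motifs searched on both strands.

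Cav1-201 promoter, chr6:17306085-17306384, plus strand: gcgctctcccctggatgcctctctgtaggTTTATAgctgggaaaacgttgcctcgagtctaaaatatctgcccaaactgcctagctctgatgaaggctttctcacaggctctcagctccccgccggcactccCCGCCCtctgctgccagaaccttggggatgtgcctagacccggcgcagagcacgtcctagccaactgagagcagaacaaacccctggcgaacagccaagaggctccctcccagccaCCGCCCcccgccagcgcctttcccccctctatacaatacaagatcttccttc

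Cav1-202 promoter, chr6:17307390-17307689, plus strand: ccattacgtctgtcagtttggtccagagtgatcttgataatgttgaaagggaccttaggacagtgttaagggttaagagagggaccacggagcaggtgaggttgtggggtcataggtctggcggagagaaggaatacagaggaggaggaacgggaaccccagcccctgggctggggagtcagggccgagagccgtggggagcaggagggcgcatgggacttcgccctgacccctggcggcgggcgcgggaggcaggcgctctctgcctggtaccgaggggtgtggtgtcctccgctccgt

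The Cav1-201 window held GGGCGG (Sp1 box) at 2 places, both on the strand opposite to the gene and beginning at bases -118 and -2, where base -1 is the last before the start site. The TATA box, spelled TATAAA, was found on the opposite strand at base -221. In the Cav1-202 window none of the 8 motifs was found. Of 32851 such windows of mouse genes, 35.7% held GGGCGG and 13.6% held TATAAA. The CCAAT box, spelled CCAAT, was held by 37.4% of windows, the E-box CACGTG by 7.15% and the nuclear receptor core AGGTCA by 16.3%. The cAMP element core TGACG was held by 20.8%, the Ets core TTCCGG by 14.9% and the GATA motif GATAAG by 7.44%. No motif searched lies within another. G and C made up 59.3% and 62.3% of the Cav1-201 and Cav1-202 windows, against a median of 52.7% over all windows.

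Cav1-201 stood at 61.3, 50.6 and 45.2 CPM in cold replicates 4, 11 and 15, and at 63.6, 66.3 and 64.1 CPM in control replicates 2, 9 and 14. Every cold library was thus below every control library, but the change did not pass the test (-0.30 ± 0.21, adjusted p = 0.307). For Cav1-202 the levels were 26.4, 30.5 and 31.9 CPM in the cold and 19.6, 29.0 and 32.3 CPM in the controls, with overlap. Its change was 0.14 ± 0.27 (adjusted p = 0.712). Over all 2787 tested transcripts 32.7% were called.

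Cav1-202 made up 30.1%, 37.6% and 41.4% of the reads on both transcripts in cold replicates 4, 11 and 15, from 259, 242 and 237 reads. In control replicates 2, 9 and 14 it made up 23.5%, 30.4% and 33.5%, from 153, 92 and 161 reads. The groups overlapped, because cold replicate 4 lay below control replicates 9 and 14. Means were 36.4% ± 5.72 in cold and 29.2% ± 5.12 in control libraries (SD, n = 3 each), a difference of 7.19 percentage points (exact two-sided permutation p = 0.3, smallest possible 0.1). In the usage test of edgeR the log2 change of Cav1-202 relative to the gene was 0.21, with a Simes p of 0.678 for the gene and an adjusted p of 1.00. That test called 9 of 539 genes, or 1.67%. The exact binomial intervals of single libraries spanned 17.1% to 31.1% in control replicate 2 and 35.0% to 47.9% in cold replicate 15, the libraries farthest apart.

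**Figure D3:**
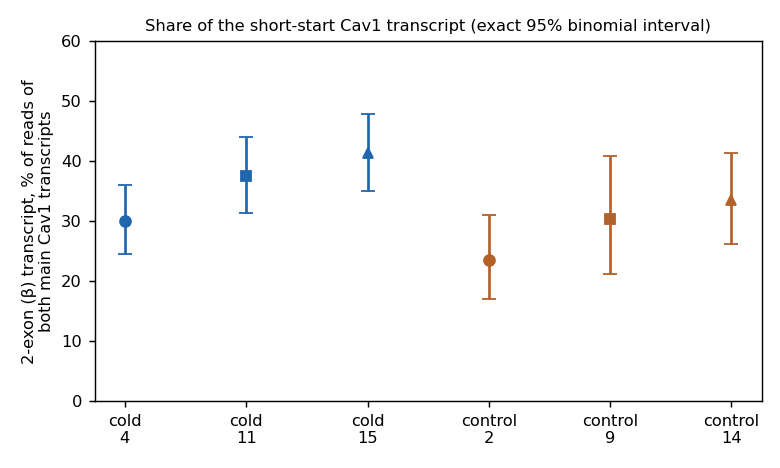
Reads of Cav1-202 as a percentage of the reads of Cav1-201 and Cav1-202 (y axis) in each of 6 libraries, with exact 95% binomial intervals that cover counting error only. Shares run from 30.1% to 41.4% in cold and from 23.5% to 33.5% in control libraries, and the groups overlap.

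Of the remaining Cav1 transcripts, Cav1-205 had 9 reads, and Cav1-203 and Cav1-208 had 1 each. Cav1-210, annotated as a target of nonsense-mediated decay, and the other 4 had none.

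Cav2 encodes the partner caveolin, which forms hetero-oligomers with caveolin 1. It had 32, 23 and 28 reads in cold replicates 4, 11 and 15, or 10.7, 7.61 and 9.22 CPM. In control replicates 2, 9 and 14 it had 8, 9 and 17 reads, or 4.33, 9.25 and 10.2 CPM. Control replicate 2 was the lowest of the 6 libraries, and control replicates 9 and 14 lay within the cold range. The change was 0.25 ± 0.37 (adjusted p = 0.631), with a 95% interval from 0.676 to 2.10 times the control level, which at this depth leaves room for a rise as well as a fall. All 117 reads were on Cav2-201, 1 of 3 annotated transcripts, which encodes 162 residues. Cav2 (ENSMUSG00000000058) lies on chromosome 6 from 17281185 to 17289115, on the same strand as Cav1.

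Cavin1 encodes the cavin that every caveola requires. Its level was 40.3, 44.4 and 35.9 CPM in cold replicates 4, 11 and 15, and at 38.9, 101 and 87.0 CPM in control replicates 2, 9 and 14. Levels in the cold lay close together, and among the controls replicate 2 lay with the cold libraries while replicates 9 and 14 were higher than every cold library. The change was -0.90 ± 0.32 (95% interval -1.60 to -0.19, unadjusted p = 0.0171, adjusted p = 0.0511), and Cavin1 was not called. Without control replicate 2 the change was -1.23 and passed the test (adjusted p = 0.00128). Without control replicate 9 it was -0.67 (adjusted p = 0.162), and over all 14 alternatives planned the adjusted p ran from 0.00128 to 0.162, with 5 below 0.05. Cavin1-201, with 676 of the 678 reads, was tested as a transcript at -0.91 ± 0.31 (adjusted p = 0.0425). It so lay just inside the threshold, on almost the same reads, and it kept that call under 4 of 14 alternatives. These 14 are not the same set as for the gene. They lack the setting with protein-coding transcripts alone and include 1 that was not planned, without cold replicates 11 and 15. The other 2 reads were on Cavin1-202, which has no coding sequence. Cavin1 (ENSMUSG00000004044) lies on chromosome 11 from 100956733 to 100970887, on the minus strand.

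Cavin2, which encodes a phosphatidylserine-binding cavin, had 26 to 35 reads in cold and 13 to 30 in control libraries. These gave 11.7, 10.9 and 8.57 CPM in cold replicates 4, 11 and 15, and 11.9, 13.4 and 18.0 CPM in control replicates 2, 9 and 14. The groups did not overlap, but cold replicate 4 and control replicate 2 differed by less than the SD of either group. The change did not pass the test (-0.47 ± 0.28, 95% interval -1.10 to 0.15, adjusted p = 0.225). Groups did not overlap in 2 of the 6 members, Cavin2 and Ehd2, and in 47.8% of all tested genes. Cavin2 (ENSMUSG00000045954) lies on chromosome 1 from 51289126 to 51302960, on the plus strand, and has 1 annotated transcript.

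Cavin3 encodes a cavin first described as a protein kinase C delta binding protein. It stood at 9.73, 7.61 and 8.89 CPM in cold replicates 4, 11 and 15, and at 7.57, 19.5 and 6.60 CPM in control replicates 2, 9 and 14. Control replicate 9, with 19 reads in the shallowest library, lay above the other 5 libraries, which ran from 6.60 to 9.73 CPM. The change was -0.24 ± 0.40 (95% interval -1.13 to 0.65, adjusted p = 0.671) and 0.26 without control replicate 9. Cavin3 (ENSMUSG00000037060) lies on chromosome 7 from 105480083 to 105482300, on the minus strand. Its exons overlap those of Gm45667 on the opposite strand, which had 0 reads. Whether counting used strand is not stated in the labels, so reads of both genes cannot be told apart.

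Ehd2 encodes the ATPase of the caveola neck, which restrains the pits from leaving the membrane. It had 123, 191 and 131 reads in cold replicates 4, 11 and 15, or 41.3, 63.2 and 43.2 CPM. In control replicates 2, 9 and 14 it had 154, 147 and 274 reads, or 83.3, 151 and 164 CPM. Every cold library lay below every control library, and control replicate 2 lay nearest to the cold ones. The change was -1.43 ± 0.29 (SE, 95% interval -2.07 to -0.79, adjusted p = 0.00377), a level 0.371 times that of the controls. Ehd2 was called lower under each of the 14 alternatives planned, at -1.69 to -1.27. It was also called with cold replicates 11 and 15, which held the most muscle RNA, left out together (-1.63, adjusted p = 0.0145), a choice made after the data were seen. All 1020 reads were on Ehd2-201, a transcript of 6 exons and 5119 nucleotides that encodes 543 residues, and none on the short Ehd2-202. Ehd2 (ENSMUSG00000074364) lies on chromosome 7 from 15946958 to 15967567, on the minus strand.

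The transcript of Ehd2 is the longest among the 6 genes. Of 329 tested genes with a mean annotated length of at least 3000 nucleotides, weighted by reads, 91 were called higher, 35 were called lower and the median log2 change was 0.31. The part of length in the change of Ehd2 was not tested. Megablast against all annotated transcripts found no copy of a member in another gene with at least 90% identity over 200 bases, apart from the overlap of Cavin3 with Gm45667.

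The promoter window of Ehd2 is given because Ehd2 is the only member called in the gene test. Its RefSeq start lies 32 bases downstream of the GENCODE start of Ehd2-201. Capitals mark the same 8 motifs.

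Ehd2 promoter, chr7:15967486-15967785, minus strand: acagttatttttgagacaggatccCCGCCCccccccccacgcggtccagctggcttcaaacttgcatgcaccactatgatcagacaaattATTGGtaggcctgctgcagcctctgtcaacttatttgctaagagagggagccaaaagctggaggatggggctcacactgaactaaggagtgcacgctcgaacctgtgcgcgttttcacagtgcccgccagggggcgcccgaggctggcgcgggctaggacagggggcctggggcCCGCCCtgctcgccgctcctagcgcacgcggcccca

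It held GGGCGG at 2 places, at bases -226 and 15, and CCAAT at 1 place, at base -160, all on the strand opposite to the gene. Windows were on hand for 5 of the 6 members, all but Cavin3. The Cav2 window held GGGCGG at 2 places that share 1 base and CCAAT at 1 place. Each of the 2 Cavin1 windows, which overlap almost wholly and hold the same matches, held GGGCGG once and CCAAT once, and the Cavin2 window held CCAAT at 1 place and no GGGCGG. The other 5 motifs were in none of these windows.

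On the scale of CPM per kilobase of mean annotated length, Cav1 stood highest in the cold, at 31.8 ± 1.85, followed by Cavin1 at 11.5 ± 1.21 and Ehd2 at 9.62 ± 2.38 (SD, n = 3). As 1 read stands for 1 cDNA molecule of any length, this scale lowers long transcripts, and its order is not one of molecules. In CPM, mean Ehd2 was above Cavin1 in the cold (49.2 against 40.2) and above Cav1 in control libraries (133 against 93.4), with overlap. The ranges of Cavin1 and Ehd2 over the cold libraries overlapped, at 10.3 to 12.7 and 8.07 to 12.4. Cavin3 followed at 5.26 ± 0.643, then Cavin2 at 3.41 ± 0.541 and Cav2 at 3.36 ± 0.572 CPM per kilobase, and the ranges of Cavin2 and Cav2 overlapped. In control libraries the level of Cav1 was 36.2 ± 3.42 CPM per kilobase, and Ehd2 was next at 26.0 ± 8.50, ahead of Cavin1 at 21.7 ± 9.31, again with overlap. Cavin3 followed at 6.76 ± 4.33, Cavin2 at 4.72 ± 1.04 and Cav2 at 2.90 ± 1.15. Only the pairs Cav1 and Ehd2 and Cavin2 and Cav2 were neighbours without overlap among the control libraries. Neighbours that did not overlap in the cold were Cav1 and Cavin1, Ehd2 and Cavin3, and Cavin3 and Cavin2.

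The make-up of the coat transcripts was also compared within each library, where scaling between libraries plays no part. Ehd2 held 20.5%, 29.6% and 23.4% of the reads of the 6 genes in cold replicates 4, 11 and 15, and 36.3%, 38.4% and 42.9% in control replicates 2, 9 and 14. Cav1 held 43.5%, 37.5% and 42.7% in the cold and 36.3%, 25.3% and 25.4% in the controls. Cav1 was thus the most counted of the 6 in each cold library, while Ehd2 was the most counted in control replicates 9 and 14 and equal with Cav1, at 154 reads each, in control replicate 2. Cavin1 held 20.1% ± 0.642 in cold and 21.8% ± 4.38 in control libraries (SD, n = 3 each).

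Reads of Ehd2 numbered 0.472, 0.790 and 0.549 for each read of Cav1 in cold replicates 4, 11 and 15, and 1.00, 1.51 and 1.69 in control replicates 2, 9 and 14. The mean log2 ratio was -0.76 ± 0.38 in cold and 0.45 ± 0.40 in control libraries (SD, n = 3 each), a difference of -1.21. The groups did not overlap, and the p was the lowest that 3 against 3 libraries can give (exact two-sided permutation p = 0.1, adjusted p = 0.25 over 5 ratios). For Cavin1 the ratio to Cav1 was 0.461, 0.555 and 0.457 in cold replicates 4, 11 and 15, against 0.469, 1.01 and 0.895 in control replicates 2, 9 and 14. Control replicate 2 again lay with the cold libraries (difference -0.62, exact permutation p = 0.2, adjusted p = 0.333). The log2 ratio of Cavin2 differed by -0.29 without overlap (exact permutation p = 0.1, adjusted p = 0.25), that of Cav2 by 0.44 and that of Cavin3 by -0.03 with overlap (exact permutation p = 0.3 and 1.0, adjusted p = 0.375 and 1.0). With 3 libraries a group no ratio can pass a threshold of 0.05.

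**Figure D4:**
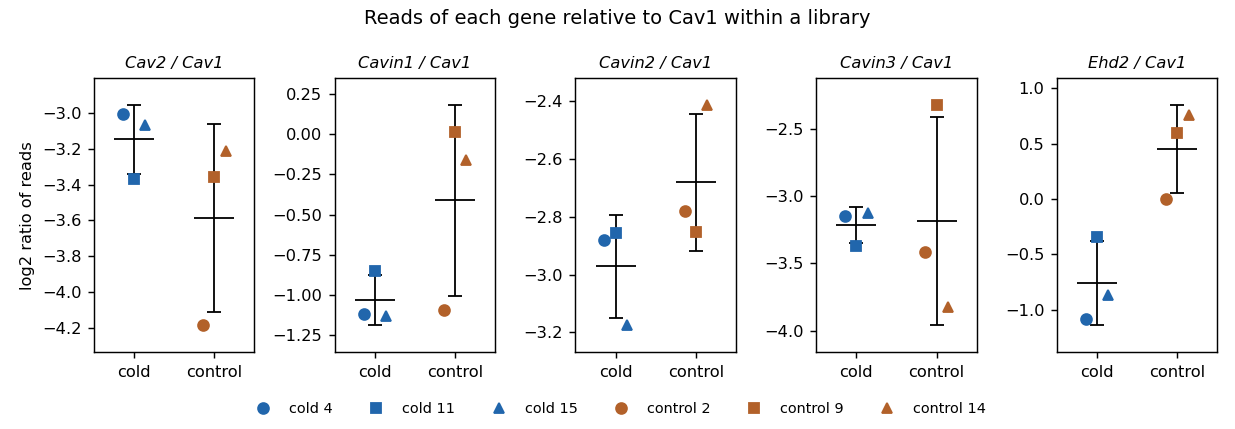
Log2 ratio of the reads of each member to the reads of Cav1 in the same library, after adding 0.5 to each count (y axis, a scale of its own in each panel), with group mean and SD. The ratio for Ehd2 runs from -1.08 to -0.34 in cold and from 0.00 to 0.76 in control libraries.

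Together the 6 genes gave 201, 214 and 184 CPM in cold replicates 4, 11 and 15, and 229, 394 and 383 CPM in control replicates 2, 9 and 14. The sum was lower in every cold library than in any control library, and control replicate 2 was nearer to the cold libraries than to the other controls. As the sum is carried by Cav1, Cavin1 and Ehd2, no test was made of it.

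Among 952 tested genes outside the set with a mean of at least 32 CPM, those whose centred log2 levels lay nearest to Cav1 over the 6 libraries were Myl6, a myosin light chain, Cyc1, cytochrome c1, and Mrps34, a mitochondrial ribosomal protein. Their root mean square differences from Cav1 were 0.032, 0.047 and 0.076 on the log2 scale. Nearest to Cavin1 were Dlat, a subunit of pyruvate dehydrogenase, Pgd, phosphogluconate dehydrogenase, and Pnrc2, at 0.16, 0.17 and 0.17. Among the members, Cavin2 lay nearest to Cav1, at 0.20, and Cav2 next, at 0.35, both with few reads. Cav1 and Cavin1 differed from each other by 0.46 on this measure. Ehd2 and Cavin1 differed by 0.36, and Ehd2 and Cav1 by 0.68.

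Other genes of the pathway were followed through 7 lists. Of the 15 genes for accessory and neck proteins and the muscle forms of the coat, 7 had a read, and only Ehd1, a relative of Ehd2 in endosome recycling, had enough to be tested. Ehd1 stood at 5.31 ± 0.0520 CPM in cold and 7.56 ± 1.29 CPM in control libraries (SD, n = 3 each; -0.51 ± 0.33, adjusted p = 0.262). Pacsin2, which encodes a membrane-curving protein of the caveola neck, had 34 reads in all, Ehd4, Ehd3 and Dnm2, the dynamin, had 1 each, and Cavin4, the muscle cavin, had none. Cav3, the muscle caveolin, had 2 reads, both in cold replicate 15, the library with the highest muscle marker sum. Of the raft scaffold genes, 3 of 6 were tested and 0 called. Flot2, a flotillin, was nearest to a call, at 6.20 ± 1.25 CPM in cold and 15.9 ± 9.77 CPM in control libraries (-1.31 ± 0.48, adjusted p = 0.0572).

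Genes for proteins that work at caveolae of fat and endothelial cells differed in direction. Of 17 such genes 7 were tested, 3 rose and 1 fell, with a median log2 change of 0.57. Over all tested genes 18.1% were called higher and 15.1% lower, with a median of 0.04, and these shares are the background for the lists that follow too. Slc2a4, the insulin-regulated glucose transporter, rose to 305 ± 50.5 CPM, against 177 ± 45.6 CPM in control libraries (0.79 ± 0.24, adjusted p = 0.0274). The fatty acid translocase Cd36 rose by 1.04 ± 0.20 (adjusted p = 0.00266) and Aqp7, a glycerol channel, by 1.10 ± 0.37 (adjusted p = 0.0386). Aqp7 stood at 9.51 ± 1.26 CPM in cold and 4.21 ± 1.53 CPM in control libraries (SD, n = 3 each). In control replicate 9 it stood at 3.08 CPM, close to the floor of 3 reads. Aqp7 entered the test through its reads in the cold libraries, which limits its count among the 3 that rose. The insulin receptor gene Insr had 1 read and Nos3, the endothelial nitric oxide synthase, had 2, so neither could be tested.

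Caveola membranes are rich in cholesterol, sphingomyelin and phosphatidylserine. Of 26 genes of cholesterol synthesis and uptake 4 were tested, 3 fell and 0 rose (median -1.63). Pmvk, phosphomevalonate kinase, fell to 33.4 ± 1.34 CPM in cold, against 138 ± 40.5 CPM in control libraries (-2.04 ± 0.25, adjusted p = 0.000204). Npc2, which carries cholesterol out of lysosomes, fell to 102 ± 9.70 CPM, against 297 ± 20.6 CPM (-1.54 ± 0.19, adjusted p = 0.000222), and Nsdhl, a sterol dehydrogenase, fell by 1.72 ± 0.50 (adjusted p = 0.0219). Of 16 genes of sphingolipid and phosphatidylserine synthesis 4 were tested, 2 rose and 0 fell (median 0.67). Like Aqp7, 1 of those that rose, Sptlc1, entered the test through its reads in the cold libraries. Sptlc1, a subunit of the enzyme that starts sphingolipid synthesis, stood at 10.7, 10.9 and 8.24 CPM in cold replicates 4, 11 and 15, against 0, 2.06 and 2.40 CPM in control replicates 2, 9 and 14 (adjusted p = 0.00437). Its levels in control replicates 2 and 9 were below the floor of 3 reads, so that its fitted change has no firm size and its count and the list's median support nothing. Ptdss2, a phosphatidylserine synthase, rose to 33.1 ± 6.65 CPM, against 15.0 ± 4.75 CPM in control libraries (1.13 ± 0.29, adjusted p = 0.0127).

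Of 17 genes of the clathrin coat, the other main coat of the plasma membrane, 5 were tested and 0 called, with log2 changes from -0.20 for Clta to 0.90 for Epn1 (median 0.12). Cltc, the clathrin heavy chain, had 0 reads, so the coat as a whole was not measured. Of 13 reported regulators of caveola genes 3 were tested and 0 called. These were Pparg (0.07 ± 0.46), the fat cell factor Cebpa (-0.50 ± 0.46) and Klf2 (-0.98 ± 0.39, adjusted p = 0.0762). Tested members numbered 1 to 7 a list, so that single genes set these counts.

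**Figure D5:**
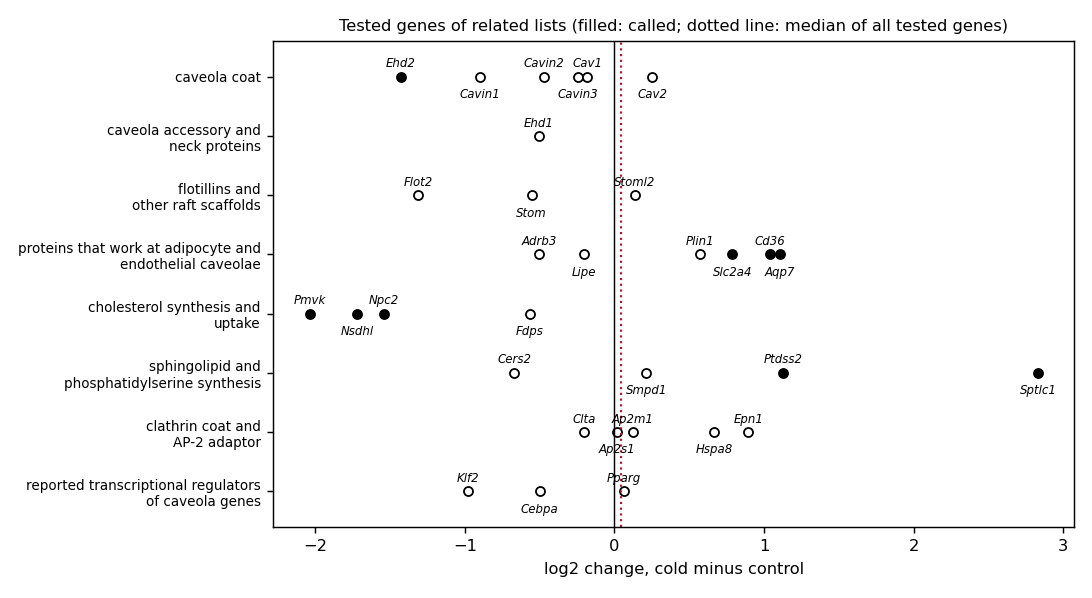
Log2 change, cold minus control (x axis), of tested genes in the caveola coat and 7 related lists, each point labelled with its gene; filled points passed the test and open points did not, and the dotted line is the median of all tested genes. Pmvk, Npc2 and Nsdhl of the cholesterol list lie at -2.04 to -1.54. Nsdhl entered the test through its reads in the control libraries and Aqp7 through its reads in the cold libraries. The place of Sptlc1 is not firm, as it stood at 0 to 2.40 CPM in the control libraries.

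Endothelial cells also carry caveolae. Of 15 endothelial markers 14 had a read and Tek had none. Of the 6 tested, 2 rose and 0 fell, a share close to the 33.2% of all tested genes that were called. Eng and Gpihbp1 rose by 1.01 ± 0.23 and 0.76 ± 0.18 (adjusted p = 0.00633 and 0.00801). Esam, Ly6c1, Emcn and Egfl7 were not called, at log2 changes of 0.40, 0.23, -0.07 and -0.22. The summed level of the list was 1268 to 1592 CPM in cold and 816 to 1065 CPM in control libraries, higher in every cold library. Gpihbp1, Ly6c1 and Eng carried this sum, and the other 11 markers with a read summed to 45.1 to 58.7 CPM in cold and 42.7 to 68.8 CPM in control libraries, with overlap. Brown adipocyte markers summed to 15422 to 16195 CPM in cold and 16211 to 21423 CPM in control libraries. The sum was lower in every cold library, but cold replicate 4 and control replicate 9 almost met, at 16195 and 16211 CPM. Of these 9 markers 2 rose, Plin5 and Elovl3, and 2 fell, against 18.1% and 15.1% of all tested genes. Elovl3 stood at 77.5, 112 and 56.7 CPM in cold replicates 4, 11 and 15. In control replicates 2, 9 and 14 it stood at 3.79, 6.17 and 9.00 CPM. The control libraries alone would not have passed the count filter, so Elovl3 entered the test through its reads in the cold, which limits its count. Cox8b fell to 1975 CPM, against 3890 CPM in control libraries, and Adipoq to 1043 CPM, against 1914 CPM (means, n = 3 each). Ucp1, Cidea, Cox7a1, Plin1 and Pparg were not called, at log2 changes of -0.13, 0.08, -0.06, 0.57 and 0.07. Smooth muscle and pericyte markers summed to 39.3 to 50.6 CPM in cold and 41.1 to 52.2 CPM in control libraries, and 1 of 11, Acta2, was tested and was not called. Fibroblast markers summed to 30.9 to 54.0 CPM in cold and 15.6 to 39.0 CPM in control libraries, with Col1a1, Col3a1 and Pdgfra at 0. Macrophage markers summed to 53.0 to 122 CPM in cold and 52.8 to 86.3 CPM in control libraries, with Adgre1, Cd68 and Csf1r at 0. Erythrocyte markers summed to 16327 to 22521 CPM in cold and 14978 to 28132 CPM in control libraries. Schwann cell markers summed to 77.5 to 98.8 CPM in cold and 115 to 190 CPM in control libraries, also lower in every cold library, mostly through S100b, which fell and which adipocytes also express. Skeletal muscle markers, with sums that overlapped between the groups, had 0 of 7 tested genes called. Mesothelial markers had no read. The part of any of these cell types in the change of Ehd2 was not tested.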

How the data were processed

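RNA of 6 libraries, 3 cold and 3 control, was measured. Per the labels' protocols, poly(A) RNA was selected in 2 rounds, capped full-length cDNA was made with the TeloPrime kit and amplified over 27 PCR cycles, and 400 ng went into nanopore libraries. No molecular identifiers are named, so intervals and floors cover counting error only. The tissue labels give interscapular brown fat, but the extraction text speaks of eWAT. The cold treatment is described on all 6 records, so groups were taken from titles. The deposited files give raw counts of reads per Ensembl transcript and flow cell, without normalization. The submitters' processing notes name minimap2 and GRCm38. How reads matching several transcripts were handled is not stated there.

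Counts were joined to GENCODE M21 (14671 of 14693 identifiers, version dropped) and summed over 2 flow cells and, for genes, over transcripts. Tests used edgeR 4.0.16 in R 4.3.3 with filterByExpr at a minimum count of 10, TMM scaling and the robust quasi-likelihood F test. Calls are at a Benjamini-Hochberg adjusted p under 0.05 over all genes or all transcripts. Standard errors were derived from each log2 change and its F value. Usage was tested with diffSpliceDGE, and ratios by exact permutation over 10 splits. In simulated gene counts 50 genes each were set at 0.25, 0.5, 2 and 4 times the control level. Of these 88%, 30%, 42% and 100% were recovered among 2102 genes tested, with 9 false calls. For the transcript test the shares were 82%, 24%, 34% and 94% among 2775 transcripts, with 4 false calls. For usage, with 1 transcript at 4-fold in 200 genes, the share was 79% among 553 genes, with 5 false calls. Other tools were DESeq2 1.42.0, an alternative, and blastn 2.17.0.

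Promoter windows are from RefSeq (GRCm38.p6), and the coding sequence is from GENCODE. A comparison of member proteins was planned and is not reported, as no protein table was used here. The members and lists were chosen with earlier results of these data known. All members were named. From each list all called genes were named where 6 or fewer, apart from 1 that is not reported here and that the list plot leaves out; Ehd1, Flot2, Pacsin2, Clta, Epn1 and others that were not called are examples chosen after their values were seen. For Cav1 and Cavin1 the 3 genes of nearest pattern were named, from log2(CPM + 1). Mouse labels name 1 library a mouse, so p-values measure spread between mice.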

Additional observations from a re-analysis of the deposited data

How the results depend on the processing

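Ehd2 and its transcript Ehd2-201 kept their direction and their call under all alternatives run: DESeq2, library totals without TMM, no count filter, a minimum count of 30, thinning to equal depth, each flow cell alone, each library left out and, for the gene, protein-coding transcripts alone. The median change of all genes moved by 0.26 without a count filter, where 1 read was enough, and by at most 0.067 otherwise. The number of members called became 2, with Cavin1 as the second, at a minimum count of 30 (-0.90, adjusted p = 0.0494), after thinning (-1.03), with protein-coding transcripts alone (-0.92), by DESeq2 (-0.95, adjusted p = 0.0151) and without control replicate 2 (-1.23). Transcript Cavin1-201 lost its call with totals alone (-0.83), without a count filter (-0.78), at a minimum count of 30 (-0.90, adjusted p = 0.0503), on flow cell 1 alone (-0.91) and without cold replicates 11 and 15 together (-0.88). It also lost its call with any single library left out except control replicate 2 (adjusted p = 0.0723 to 0.177), so that 4 of 14 alternatives kept it. With single libraries left out, its change ran from -1.22 to -0.64 and that of Cavin1 from -1.23 to -0.67. Cavin3 was at 0.031 on flow cell 2 alone (transcript 0.035) and at -0.55 to 0.26 with single libraries left out (transcript -0.54 to 0.31). Cav2 ran from -0.10, without control replicate 2, to 0.51 (transcript -0.080 to 0.53), and Cav1-202 from -0.045, without control replicate 2, to 0.30. Without cold replicates 11 and 15 Cav1-202 was at -0.0014. None of these changes of sign involves a call. The cause of these shifts was not tested. The ratio of Cavin2 to Cav1 differed by -0.043 on flow cell 2 alone. Transcripts called lower numbered 427, and 271 to 401 with single libraries left out, the fewest without cold replicate 4 and next 284 without cold replicate 11. With cold replicates 11 and 15 left out together, fewer samples left 201 genes called higher and 120 lower, and 239 and 172 transcripts. The lone cold library is then assumed to vary like the controls. No paired analysis was possible because the cold and control mice share no number. Cav2, Cavin2 and Cavin3, with 8 to 35 reads a library, are limited most by depth.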
